A study of Mus musculus with 24 samples.

Results

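Lysophosphatidic acid (LPA) is both a signalling lipid and an intermediate of phospholipid synthesis, and the genes described here code for acyltransferases at that step: Agpat1, Agpat2, Agpat3, Agpat4, Agpat5 and Gpam. These 6 of the 49172 genes in the tables were taken by name, and the estimated counts and the TPM (transcript abundance per library, corrected for length and scaled to a fixed total) of all their Ensembl transcripts, 39 in number, were summed per gene. Each of the 6 passed the filter on low counts, so all stand among the 16424 genes tested. The cells were Ocy454, a mouse osteocytic line, in 8 groups of 3 libraries each (24 in all): at 8 h and at 2 h, cultures with both LPA and 1,25-dihydroxyvitamin D (1,25D, the active vitamin D hormone), cultures with a single agent, and vehicle cultures. The question of the study was how LPA and 1,25D act on the synthesis of fibroblast growth factor-23, a phosphate-lowering hormone made in bone. No source used here states the doses, the vehicle or the culture conditions.

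The labels of the single-agent libraries contradict each other: the libraries whose processed files carry the code L are titled as 1,25D, and those with the code D are titled as LPA. They are called file-code L and file-code D libraries below. Cyp24a1, the vitamin D 24-hydroxylase and a classic target of the vitamin D receptor, had 35, 28 and 24 counts in the both-agent libraries at 8 h, 0, 1 and 0 in the file-code L libraries, 25, 48 and 29 in the file-code D libraries and 1, 0 and 0 in the vehicle libraries. Vdr, the receptor itself, was 0.83 ± 0.08 (log2 ± SE) higher with both agents and 1.02 ± 0.08 higher in file-code D libraries than in vehicle libraries at 8 h, and 0.80 lower (−0.80 ± 0.08) in file-code L libraries. Both genes thus rose in the libraries titled as LPA and neither rose in those titled as 1,25D. Comparisons of both agents with vehicle, the interaction and the vehicle time comparison do not depend on which single-agent label is right.

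Library totals lay between 32964439 and 33842037 estimated counts, with 21077 to 23260 genes detected, and mitochondrial genes took 9.01% to 16.92% of counts. The vehicle library of replicate 2 at 8 h had the highest mitochondrial share. It also lay lowest (−0.46) on the main axis of variation among libraries of the same group, which held 12.4% of that variation, and the both-agent library of replicate 2 at 8 h lay next to it (−0.43). Of 12 osteocyte and osteoblast markers, 5 reached a mean of 1 TPM (Col1a1, Pdpn, Runx2, Bglap and Dmp1), while Sost, Mepe, Ibsp and Fgf23 averaged at most 0.0216 TPM. None of 6 adipocyte markers reached 1 TPM, and their summed level lay between 0.0127 and 0.975 TPM over the libraries. Of 6 macrophage and blood cell markers 2 did, Cd68 (14.8 TPM) and Lyz2 (5.63 TPM), and the list summed to 16.35 to 25.15 TPM. Of 5 skeletal muscle markers 1 did, Acta1 (2.19 TPM). None of 5 chondrocyte and none of 5 endothelial markers did.

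LPA is also made inside cells. In the de novo pathway a glycerol 3-phosphate acyltransferase adds a fatty acyl chain to glycerol 3-phosphate to give LPA. A 1-acylglycerol-3-phosphate acyltransferase (AGPAT) then adds the next chain to give phosphatidic acid. The glycerophospholipids and triacylglycerol made by this pathway derive from phosphatidic acid. Gpam encodes mitochondrial glycerol 3-phosphate acyltransferase 1, so among these genes it makes LPA rather than acylating it. AGPAT1 and AGPAT2 are enzymes of the endoplasmic reticulum, and loss of AGPAT2 causes generalized lipodystrophy in humans. AGPAT3 accepts polyunsaturated acyl chains such as docosahexaenoyl-CoA, AGPAT4 is best known from brain in mice, and AGPAT5 has been placed in mitochondria.

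The family differed widely in level. On the TPM scale, which is per transcript length, Agpat1 averaged 71.8 ± 24.3 TPM, Agpat2 48.0 ± 7.7, Agpat3 35.1 ± 8.57, Agpat4 21.9 ± 2.12, Gpam 7.83 ± 1.43 and Agpat5 6.92 ± 0.961 (SD over 24 libraries of 8 groups). Agpat1 stood above 89.4% of the genes tested, and Agpat5 above 47.6%. Agpat1 was above Agpat2 in 21 of 24 libraries, Agpat2 above Agpat3 in 20, Agpat3 above Agpat4 in 23 and Agpat4 above Gpam in all 24. These sums include transcripts of every type. Agpat2-202, annotated as a processed transcript and not as protein-coding, held 34.9% of Agpat2 TPM. Agpat1-207, annotated for nonsense-mediated decay, held 23.5% of Agpat1 TPM. Agpat3-206 and Agpat3-209, of 642 and 413 bases, held 19.45% and 16.08% of Agpat3 TPM. The order by protein-coding transcripts alone was not examined. At the low end the order of Gpam and Agpat5 differed between groups: Gpam was above Agpat5 in 16 of 24 libraries. At 8 h Gpam averaged 5.56 ± 0.376 TPM and Agpat5 7.83 ± 0.856 TPM with both agents, against 8.61 ± 1.17 TPM (Gpam) and 5.30 ± 0.493 TPM (Agpat5) in vehicle libraries. Gpam lay below Agpat5 in every both-agent library and above it in every vehicle library, at both times. Agpat1 and Agpat2 did not differ beyond their spread in vehicle libraries at 8 h, at 50.5 ± 22.2 and 52.6 ± 3.74 TPM (SD, n = 3). At 8 h the summed level of the 6 genes was 212 ± 24.8 TPM with both agents, 200 ± 3.9 TPM in file-code L, 250 ± 37.2 TPM in file-code D and 167 ± 36.8 TPM in vehicle libraries (SD, n = 3 each). Agpat1 alone made up 34.9%, 40.3%, 46.1% and 30.3% of those group sums, in the same order of groups. These are bulk cultures, in which fewer cells with a transcript and less of it per cell cannot be told apart.

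**Figure D1:**
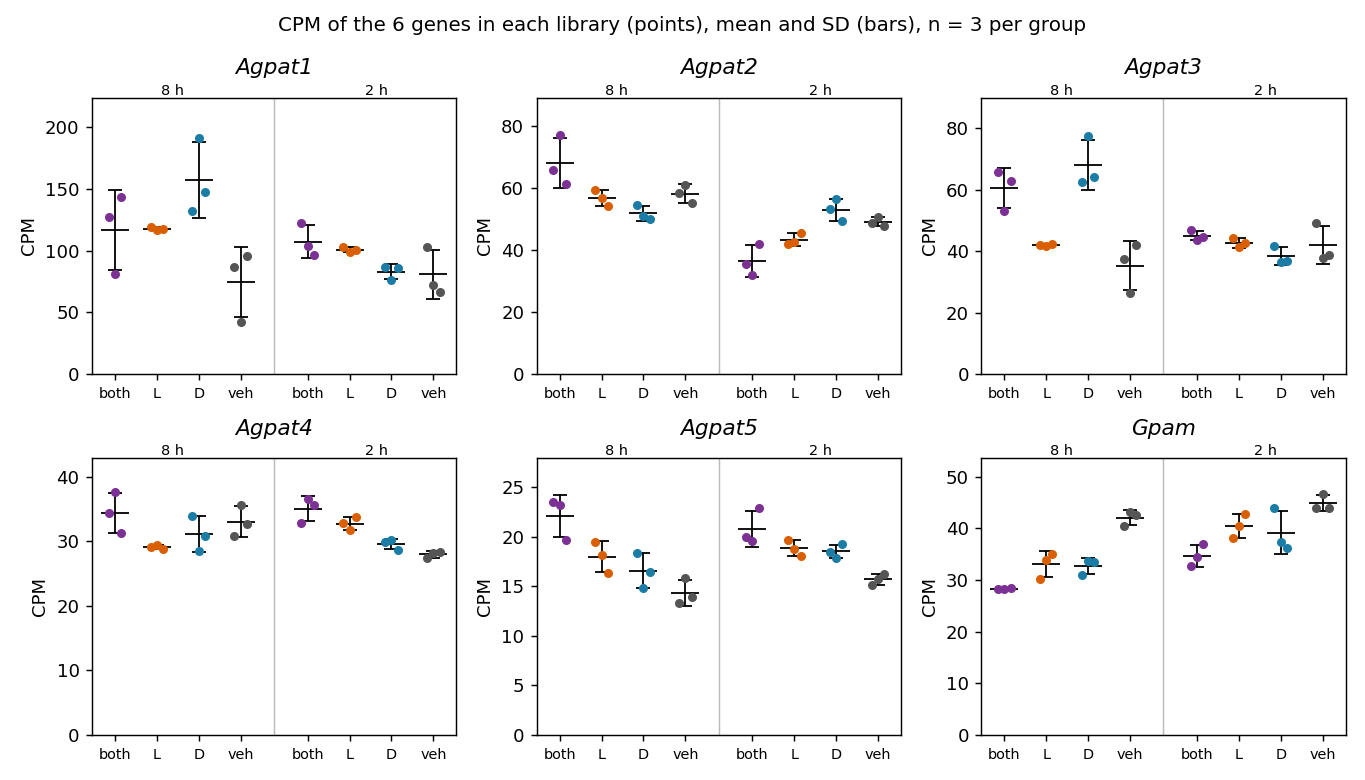
CPM of the 6 genes, scaled between libraries, in all 24 libraries, 1 panel per gene; the groups run along the horizontal axis, each point is a library and bars give the mean and SD of 3. Gpam lay lower in every both-agent library than in every vehicle library at both times, and Agpat3 stood highest in both-agent and file-code D libraries at 8 h.

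At 8 h, 3 of the 6 genes passed the threshold with both agents against vehicle, where 16.8% of all genes tested did (9.54% higher, 7.25% lower): Agpat3 and Agpat5 rose and Gpam fell. In file-code L libraries 2 passed, Agpat5 higher and Gpam lower, against 16.2% of all genes (7.89% higher, 8.32% lower). In file-code D libraries 3 passed, Agpat1 and Agpat3 higher and Gpam lower, against 12.0% of all genes (6.62% higher, 5.38% lower). At 2 h, 4 passed with both agents, against 19.9% of all genes (9.88% higher): Agpat4 and Agpat5 rose, and Agpat2 and Gpam fell. No member passed with either single agent at 2 h, where 13.9% of all genes passed in file-code L libraries (7.06% higher, 6.85% lower) and 0.785% in file-code D libraries (0.597% higher, 0.189% lower). At unadjusted p under 0.05, 2 members (Agpat4 and Agpat5) passed in file-code L libraries at 2 h and 2 (Agpat5 and Gpam) in file-code D libraries, by edgeR's quasi-likelihood test. DESeq2 called 1 and 0, against 18.6% and 2.61% of all genes. Over the 6 comparisons with vehicle, Gpam fell in 4, Agpat5 rose in 3, Agpat3 rose in 2, and Agpat1, Agpat2 and Agpat4 each passed in 1. The 3 comparisons at each time share the same vehicle libraries. With 6 genes chosen by name, no test of the list as a whole was made, and each p-value measures no more than the spread among the sampled libraries, which may be technical, because no label tells whether replicates were grown apart.

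**Figure D2:**
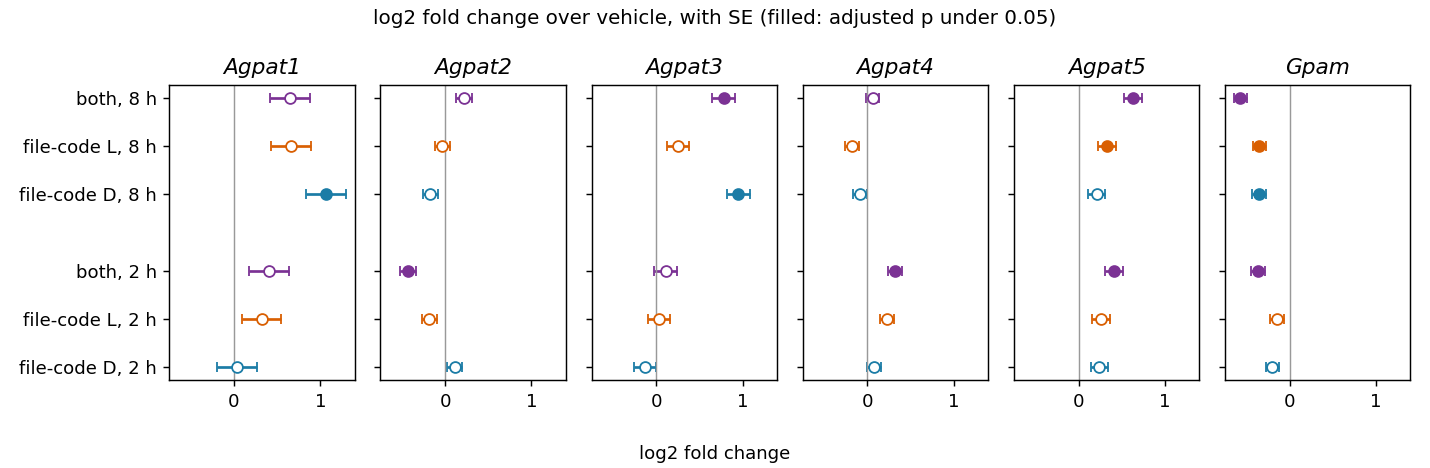
Log2 fold change of each gene in the 6 comparisons with vehicle, with bars of 1 standard error from the fit over all 24 libraries; filled points passed an adjusted p of 0.05. Gpam lies below 0 in all 6 comparisons and passed in 4, while Agpat3 and Agpat1 reach their highest values in file-code D libraries at 8 h.

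Gpam, whose product makes LPA in the first acylation, fell in every treated group at 8 h. In CPM (counts relative to the scaled library total) it had 28.2, 28.2 and 28.5 with both agents, 30.2, 33.9 and 35.1 in file-code L libraries, 31.0, 33.6 and 33.5 in file-code D libraries, and 40.4, 43.3 and 42.6 in vehicle libraries. All 9 treated libraries lay below all 3 vehicle libraries, and the 3 both-agent values lay below all others. The log2 fold change was −0.57 ± 0.08 with both agents (adjusted p = 1.2e-05), −0.35 ± 0.08 in file-code L (0.0036) and −0.36 ± 0.08 in file-code D libraries (0.0028; edgeR quasi-likelihood test, Benjamini-Hochberg adjustment over 16424 genes). At 2 h Gpam had 32.6, 34.4 and 37.0 CPM with both agents, 38.2, 40.4 and 42.9 in file-code L, 43.9, 37.4 and 36.2 in file-code D, and 44.0, 46.7 and 44.0 in vehicle libraries. It fell with both agents (−0.37 ± 0.08, adjusted p = 0.0012), while the single agents gave −0.15 ± 0.08 (0.24) in file-code L and −0.20 ± 0.08 (0.27) in file-code D libraries. The fall in file-code D libraries at 8 h missed the threshold when only these groups were fitted (adjusted p = 0.059).

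Gpam lies on chromosome 19, minus strand, and RefSeq gives it 2 transcription starts, so both are shown here as the 250 bases before each start (GRCm38.p6, RefSeq, 5′ to 3′, capitals mark matches to the motifs named after them). Transcript Gpam-202, which held 71.0% of the gene's TPM, begins 22 bases after the first start, and Gpam-201, with 27.7%, begins 26 bases after the second start and 27787 bases after the first.
Gpam first start, chr19:55127239-55127488, minus strand: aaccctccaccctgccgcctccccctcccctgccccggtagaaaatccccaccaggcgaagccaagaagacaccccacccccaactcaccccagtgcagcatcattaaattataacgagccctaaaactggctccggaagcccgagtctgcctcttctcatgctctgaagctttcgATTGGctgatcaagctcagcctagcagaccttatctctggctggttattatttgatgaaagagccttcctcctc
Gpam second start, chr19:55099478-55099727, minus strand: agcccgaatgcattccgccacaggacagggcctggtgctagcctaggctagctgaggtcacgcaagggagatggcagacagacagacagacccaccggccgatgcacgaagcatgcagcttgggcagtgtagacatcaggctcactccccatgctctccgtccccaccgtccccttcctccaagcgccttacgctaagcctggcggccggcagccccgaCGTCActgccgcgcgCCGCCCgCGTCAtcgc
The first window holds 1 CCAAT box (CCAAT, here on the opposite strand as ATTGG), a motif present in 33.8% of 32851 mouse promoter windows of this length. The second holds 2 copies of the cAMP-response core TGACG (as CGTCA), which 17.8% of windows hold at least once, and 1 GC box (GGGCGG, as CCGCCC), which 32.7% hold. All motifs were searched on both strands. The full cAMP-response element TGACGTCA, the E-box CACGTG, the AP-1 site TGANTCA, the sterol-response motif TCACNCCAC, the EGR motif GCGNGGGCG and the vitamin D receptor's direct repeat had no match in either window. They occur in 1.55%, 6.02%, 6.75%, 1.05%, 4.7% and 0.00609% of windows, in that order. The direct repeat was searched in its exact form only, which 2 of 32851 windows hold. Its absence therefore says little about sites of the vitamin D receptor, whose half-sites and inexact repeats were not searched. A match describes letters and not a bound site.

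Gpam-202 fell with both agents at 8 h, to 4.42, 3.46 and 4.21 TPM, against 5.72, 5.97 and 6.87 TPM in vehicle libraries (log2 −0.61 ± 0.11, adjusted p = 0.0022 in the edgeR fit of 51989 transcripts). It also fell in file-code L libraries at 8 h (−0.52 ± 0.11, 0.013) and with both agents at 2 h (−0.43 ± 0.11, 0.033), and gave −0.37 ± 0.11 (0.099) in file-code D libraries at 8 h. Gpam-201 passed in no comparison with vehicle. Its log2 values at 8 h were −0.63 ± 0.27 with both agents, 0.06 ± 0.27 in file-code L and −0.67 ± 0.27 in file-code D libraries. A difference between the transcripts was not tested. The fall of Gpam-202 in file-code L libraries was lost without vehicle replicate 2 or without file-code L replicate 1, either of which left 0 member transcripts past the threshold in that comparison.

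Agpat1, which had the highest mean level over the 24 libraries, rose in file-code D libraries at 8 h and had the largest standard error of the 6 members (0.23). Its values at 8 h were 127, 80.9 and 143 CPM with both agents, 119, 117 and 118 CPM in file-code L, 132, 192 and 148 CPM in file-code D, and 86.7, 42.3 and 95.5 CPM in vehicle libraries. File-code L and file-code D libraries all lay above the vehicle libraries, while the both-agent library of replicate 2 lay among them. The log2 fold change was 1.07 ± 0.23 in file-code D libraries (2.10-fold, adjusted p = 0.0029), 0.66 ± 0.23 in file-code L (0.053) and 0.65 ± 0.23 with both agents (0.056). The differences of file-code L libraries and of both agents passed at about the same size with DESeq2 (0.66, adjusted p = 0.020, and 0.64, 0.026), with no filter on low counts (0.65, 1.1e-08, and 0.63, 2.4e-08) and after GC and length correction (0.50, 0.014, and 0.59, 0.0042). With no filter the standard error of each was 0.10 in place of 0.23, from the same Agpat1 counts. At 2 h Agpat1 averaged 107 ± 13.4 CPM with both agents, 101 ± 1.95 in file-code L, 83.1 ± 6.05 in file-code D and 80.8 ± 19.7 in vehicle libraries (SD, n = 3 each), and no comparison with vehicle passed (adjusted p = 0.24, 0.43 and 0.95, in the order of the treated groups).

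The vehicle library with the lowest Agpat1 value, replicate 2 at 8 h, is the one lowest on the main axis of variation within groups, and the low both-agent library is the one next to it on that axis. The loading of Agpat1 on the axis exceeded that of 91.2% of genes tested. Without that vehicle library the difference of file-code D libraries was 0.77 ± 0.20 (adjusted p = 0.018), of file-code L 0.38 ± 0.19 (0.28) and of both agents 0.36 ± 0.19 (0.25). With the axis as a covariate, an alternative chosen after seeing the data, they were 1.13 ± 0.08 (7.8e-13), 0.73 ± 0.08 (8.8e-09) and 0.68 ± 0.08 (3.4e-08), and the covariate itself was drawn from these libraries. Fitted on the compared groups alone, the file-code D difference had an adjusted p of 0.14.

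**Figure D3:**
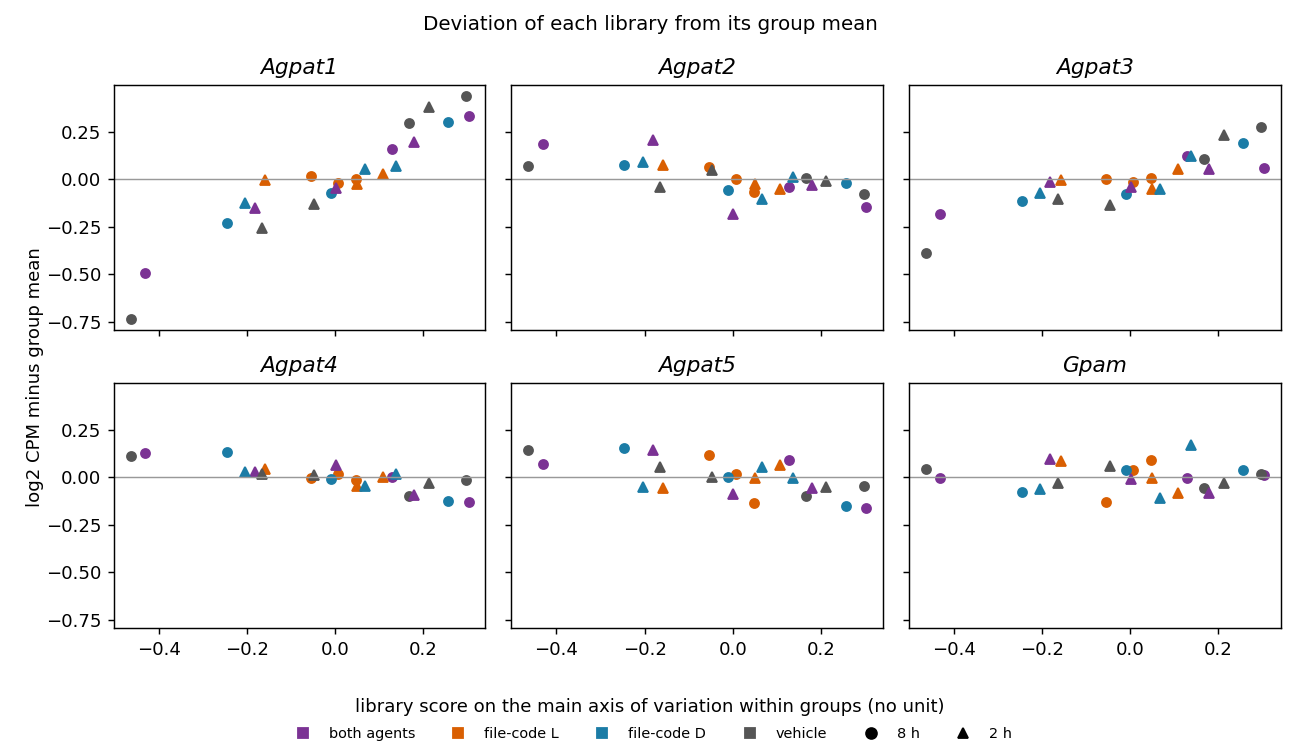
Deviation of each library from its group mean (log2 CPM, vertical axis) against its score on the main axis of variation within groups (horizontal axis, no unit), 1 panel per gene, with colours for groups, circles for 8 h and triangles for 2 h. The 8 h vehicle library of replicate 2 (score −0.46) lies lowest for Agpat1 and Agpat3, at 42.3 and 26.5 CPM, and the points of Agpat1 run upward along the axis while those of Gpam show no such run.

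Agpat2, the AGPAT of adipose tissue whose loss causes lipodystrophy, fell with both agents at 2 h and did not pass at 8 h. At 2 h it had 35.5, 32.0 and 41.9 CPM with both agents, 41.8, 42.7 and 45.6 in file-code L, 53.3, 56.3 and 49.3 in file-code D, and 48.8, 50.8 and 47.9 in vehicle libraries. Every both-agent library lay below every vehicle library (log2 −0.43 ± 0.09, adjusted p = 0.0014), and every file-code L library did too, with −0.18 ± 0.09 (0.22). File-code D libraries gave 0.11 ± 0.09 (0.60). At 8 h Agpat2 had 65.8, 77.0 and 61.2 CPM with both agents, 59.4, 56.9 and 54.3 in file-code L, 54.5, 51.1 and 49.9 in file-code D, and 58.4, 61.0 and 55.2 in vehicle libraries, and the log2 differences from vehicle were 0.22 ± 0.09 (0.095), −0.03 ± 0.09 (0.85) and −0.17 ± 0.09 (0.22). After a correction for transcript GC content and length, added after seeing the data, the fall at 2 h was −0.30 with an adjusted p of 0.058.

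Agpat3, which favours polyunsaturated chains, rose at 8 h with both agents and in file-code D libraries. It had 65.7, 53.2 and 62.9 CPM with both agents, 42.1, 41.7 and 42.3 in file-code L, 62.7, 77.5 and 64.2 in file-code D, and 37.4, 26.5 and 42.0 in vehicle libraries. The both-agent and file-code D libraries lay above all others at 8 h. The log2 fold change was 0.78 ± 0.13 with both agents (1.71-fold, adjusted p = 0.00014), 0.25 ± 0.13 in file-code L (0.20) and 0.95 ± 0.13 in file-code D libraries (1.93-fold, 1.9e-05). At 2 h the group means lay between 38.4 and 45.1 CPM and the log2 differences from vehicle were 0.11 ± 0.13, 0.03 ± 0.13 and −0.13 ± 0.13 (adjusted p = 0.65, 0.93 and 0.66). Without the vehicle library of replicate 2 at 8 h the rises were 0.61 ± 0.11 (0.00041) with both agents and 0.76 ± 0.11 (4.9e-05) in file-code D libraries. Fitted on the compared groups alone, the rise with both agents had an adjusted p of 0.051.

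Of the 13 transcripts of Agpat3, which lies on the minus strand of chromosome 10, 8 were tested. Agpat3-204 had 5.31, 5.51 and 5.75 TPM with both agents at 8 h, 2.49, 2.42 and 2.74 in file-code L, 3.34, 4.75 and 4.31 in file-code D, and 1.95, 0.828 and 2.32 in vehicle libraries. It rose with both agents (1.77 ± 0.23, adjusted p = 7.9e-05) and in file-code D libraries (1.16 ± 0.23, 0.0075), with no overlap between either group and vehicle. Agpat3-202, the most abundant transcript with 38.6% of the gene's TPM, rose with both agents (0.82 ± 0.15, 0.0027) and gave 0.24 ± 0.15 (0.55) in file-code D libraries. Agpat3-211, which starts at the RefSeq start, reached 5.05, 12.1 and 6.49 TPM in file-code D libraries against 3.10, 1.63 and 2.71 TPM in vehicle libraries, but its log2 value of 1.49 ± 0.79 did not pass (0.46), and it had 0 counts in the both-agent library of replicate 2. Agpat3-204 and Agpat3-202 are annotated to begin 53502 and 56306 bases after that start, so the window shown next lies before neither of them.
Agpat3 RefSeq start, chr10:78351701-78351950, minus strand: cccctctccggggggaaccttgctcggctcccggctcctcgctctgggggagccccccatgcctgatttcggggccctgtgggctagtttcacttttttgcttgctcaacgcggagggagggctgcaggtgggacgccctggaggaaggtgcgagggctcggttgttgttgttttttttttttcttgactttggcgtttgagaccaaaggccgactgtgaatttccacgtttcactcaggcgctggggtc
None of the motifs named for Gpam was found in these 250 bases (GRCm38.p6, 5′ to 3′), the direct repeat again in its exact form only. Transcripts of a gene share most of their sequence, and the error of assigning reads among them was not modelled.

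**Figure D4:**
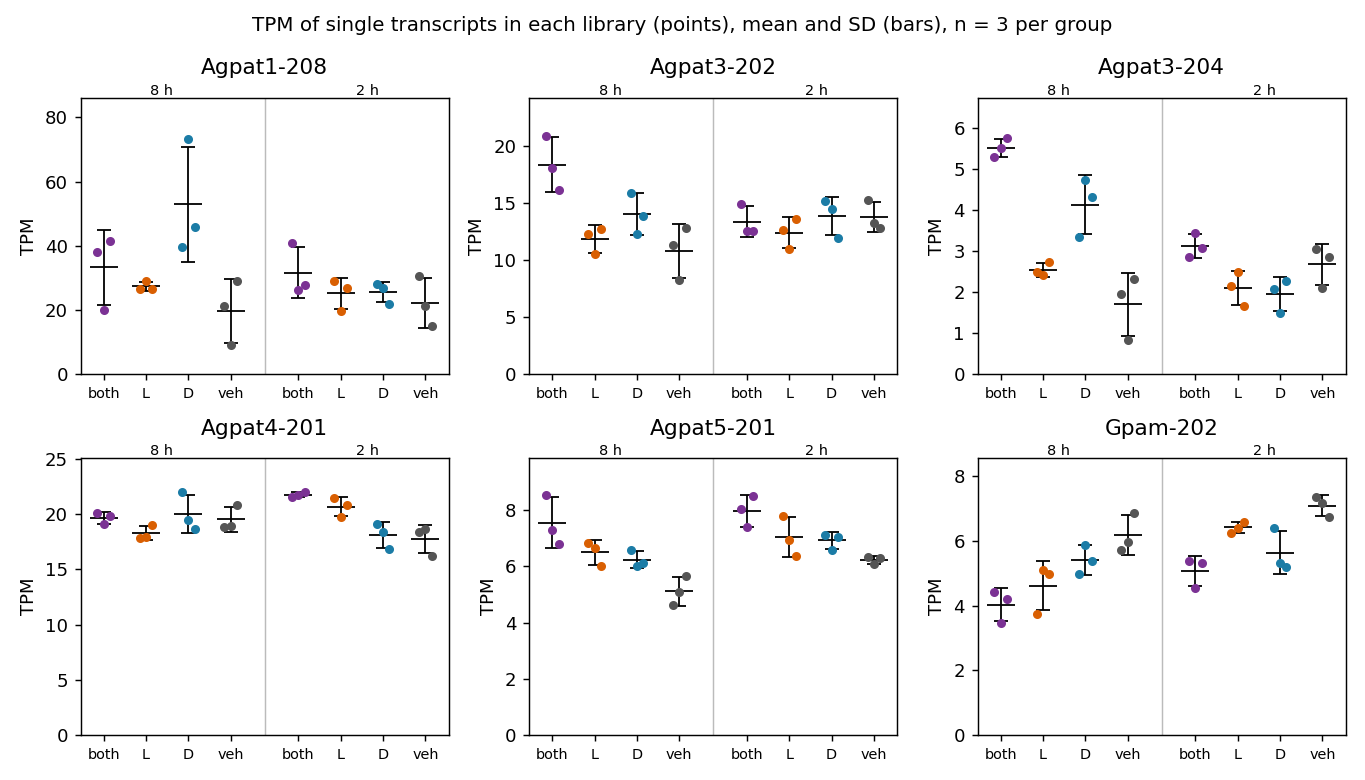
TPM (vertical axis) of the 6 member transcripts that passed in a comparison with vehicle, by group along the horizontal axis, with 1 point per library and bars at the mean and SD of 3. Agpat3-204 stands at 5.31 to 5.75 TPM with both agents at 8 h, above the 0.828 to 2.32 TPM of the vehicle libraries.

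Agpat4 moved at 2 h. It had 32.8, 36.6 and 35.7 CPM with both agents, 32.7, 31.7 and 33.7 in file-code L, 29.9, 30.2 and 28.7 in file-code D, and 27.3, 28.2 and 28.3 in vehicle libraries. All treated libraries lay above the vehicle libraries, and the difference passed with both agents (0.32 ± 0.08, adjusted p = 0.0038), but not in file-code L (0.23 ± 0.08, 0.052) or file-code D (0.08 ± 0.08, 0.64). Its main transcript, Agpat4-201 with 89.0% of the gene's TPM, rose likewise (0.35 ± 0.09, 0.047). At 8 h the differences from vehicle were 0.06 ± 0.08 with both agents, −0.18 ± 0.08 in file-code L and −0.09 ± 0.08 in file-code D libraries (adjusted p = 0.70, 0.11 and 0.46). The rise of the gene at 2 h missed the threshold with no filter on low counts (0.062) and with counts rebuilt from TPM (0.077). With any 1 of the 6 libraries left out, 0 or 1 member transcript passed in this comparison, in place of 2 (Agpat4-201 and Gpam-202).

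Agpat5, whose product has been placed in mitochondria, rose with both agents at both times. At 8 h it had 23.5, 23.2 and 19.7 CPM with both agents, 19.4, 18.2 and 16.3 in file-code L, 18.4, 14.8 and 16.5 in file-code D, and 13.3, 15.8 and 13.9 in vehicle libraries. The both-agent and file-code L libraries lay above the vehicle libraries, and the file-code D libraries overlapped them. The rise was 0.63 ± 0.10 with both agents (1.54-fold, adjusted p = 6.8e-05) and 0.33 ± 0.10 in file-code L (0.026), while file-code D gave 0.21 ± 0.10 (0.17). At 2 h Agpat5 had 20.0, 19.5 and 22.9 CPM with both agents, 19.7, 18.8 and 18.1 in file-code L, 18.4, 17.9 and 19.2 in file-code D, and 15.1, 15.7 and 16.3 in vehicle libraries. Every treated library exceeded every vehicle library, and the difference passed with both agents (0.41 ± 0.10, 0.0044), but not in file-code L (0.26 ± 0.10, 0.078) or file-code D (0.24 ± 0.10, 0.29). Agpat5-201, with 96.8% of the gene's TPM, rose with both agents at 8 h (0.58 ± 0.12, 0.011). The rise in file-code L libraries at 8 h was lost without vehicle replicate 1 (0.27, adjusted p = 0.13) or 3 (0.30, 0.064) and without file-code L replicate 1 (0.27, 0.11) or 2 (0.31, 0.091), and in fits of the compared groups alone (0.12), with no filter (0.10) or with counts rebuilt from TPM (0.12).

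Among member transcripts, 27 of 39 passed the filter on low counts. With both agents at 8 h 4 of these 27 passed, against 2.89% of all transcripts tested, in file-code L 1 against 2.09%, in file-code D 2 (Agpat1-208, at 1.28 ± 0.29 with adjusted p = 0.024, and Agpat3-204) against 1.99%, and with both agents at 2 h 2 against 3.18%. None passed at 2 h in file-code L libraries, against 2.04% of all transcripts, or in file-code D libraries, against 0.106%. None passed between vehicle libraries at 8 h and 2 h, against 1.74%. Agpat1-208, with 41.4% of the gene's TPM, had 39.5, 73.4 and 45.7 TPM in file-code D libraries at 8 h and 21.3, 9.14 and 28.9 TPM in vehicle libraries. Without vehicle replicate 2 or without file-code D replicate 2 at 8 h, the count of member transcripts past the threshold in file-code D libraries was 1.

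The both-agent libraries were also set against each single agent. Against file-code L libraries at 8 h, where 9.18% of all genes passed (5.74% higher, 3.43% lower), both agents gave 1 call, Agpat3 (0.53 ± 0.13, adjusted p = 0.010), with 60.6 ± 6.55 against 42.0 ± 0.299 CPM (SD, n = 3 each). It was lost without both-agent replicate 1 (0.46, 0.054) or file-code L replicate 1 (0.51, 0.056). Against file-code D libraries at 8 h, where 22.9% passed (14.0% higher, 8.91% lower), Agpat2 (0.39 ± 0.09, 0.0033) and Agpat5 (0.42 ± 0.10, 0.0036) were higher with both agents, with no overlap between the groups. These had adjusted p-values of 0.052 and 0.078 when only the compared groups were fitted. At 2 h both agents gave no call against file-code L libraries, where 0.767% of genes passed. By edgeR 2 of 6 members, Agpat2 and Gpam, had an unadjusted p under 0.05, and DESeq2 called 0, against 1.49% of all genes. Against file-code D libraries, where 18.7% passed (9.22% higher, 9.48% lower), Agpat2 was lower (−0.54 ± 0.09, 0.00019) and Agpat4 higher (0.24 ± 0.08, 0.029). The Agpat4 call was lost without file-code D replicate 1, 2 or 3 or without both-agent replicate 2 or 3 (0.21 to 0.26, adjusted p = 0.053 to 0.13).

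The interaction asks whether the joint difference from vehicle departs from the sum of the single-agent differences on the log2 scale. At 8 h, 2 members passed, against 7.68% of all genes (4.06% higher, 3.62% lower). Agpat1 fell short of the sum (−1.08 ± 0.32, adjusted p = 0.048): the single agents stood at 0.66 and 1.07 and both together at 0.65. Agpat2 exceeded it (0.42 ± 0.13, 0.048), with −0.03 and −0.17 for the single agents and 0.22 for both. Each call was lost when any 1 of several of the 12 libraries was left out. For Agpat1 these were vehicle replicate 2, file-code L replicates 1, 2 and 3, file-code D replicates 2 and 3, and both-agent replicates 1 and 2, giving −0.79 to −1.13 (adjusted p = 0.059 to 0.18). For Agpat2 they were vehicle replicates 1 and 2, file-code L replicates 1, 2 and 3, file-code D replicates 2 and 3, and both-agent replicates 1 and 2, giving 0.32 to 0.46 (0.054 to 0.18). At 2 h no member passed, against 0.0365% of all genes. By edgeR 1 member (Agpat2) had an unadjusted p under 0.05, and DESeq2 called 0, against 0.023% of all genes.

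Between vehicle libraries at 8 h and 2 h, Agpat4 was the 1 member that passed, against 14.6% of all genes (5.88% higher, 8.69% lower): 30.8, 35.6 and 32.7 CPM at 8 h against 27.3, 28.2 and 28.3 CPM at 2 h (0.24 ± 0.08, adjusted p = 0.038). That call was lost without 2 h vehicle replicate 1, 2 or 3 or 8 h vehicle replicate 2 or 3 (0.18 to 0.25, 0.058 to 0.24). The other members gave −0.11 (Agpat1), 0.24 (Agpat2, 0.074), −0.25 (Agpat3), −0.13 (Agpat5) and −0.09 (Gpam).

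Tests of the change in a treatment difference with time gave 4 calls. With both agents, 2 members passed, against 9.68% of all genes (5.57% higher, 4.11% lower): the difference from vehicle was higher at 8 h than at 2 h by 0.65 ± 0.13 for Agpat2 (adjusted p = 0.0016) and by 0.67 ± 0.18 for Agpat3 (0.020). After GC and length correction the Agpat2 change was 0.44 (0.076), and in a fit of the compared groups only the Agpat3 change was 0.66 (0.096). For Agpat2 the sign of the difference itself was opposite, 0.22 at 8 h and −0.43 at 2 h. In file-code D libraries, Agpat3 passed (1.07 ± 0.18, 0.00099), against 6.76% of all genes (3.76% higher), and Agpat1 gave 1.03 ± 0.32 (0.056). In file-code L libraries, Agpat4 passed in the negative direction (−0.41 ± 0.11, 0.033), against 4.17% of all genes (1.33% higher, 2.84% lower), with −0.18 at 8 h and 0.23 at 2 h. The Agpat3 change with both agents was lost without 2 h vehicle replicate 1 (0.54, 0.057) or 2 h both-agent replicate 3 (0.65, 0.055). The Agpat4 change was lost without 2 h vehicle replicate 1, 2 or 3, 2 h file-code L replicate 1 or 3, 8 h vehicle replicate 2 or any 8 h file-code L replicate (−0.33 to −0.42, 0.056 to 0.16). Over all 8 groups together, each of the 6 members differed in an F-test (adjusted p from 1.3e-06 for Agpat2 to 0.0059 for Agpat4), as did 58.1% of all genes tested.

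Other genes of the same chemistry did not move as a block. Of the other glycerol 3-phosphate acyltransferases, Gpat4, the main form of the endoplasmic reticulum, rose slightly with both agents at 8 h (125 ± 9.25 against 106 ± 7.53 CPM in vehicle libraries; 0.23 ± 0.06, adjusted p = 0.012). Gpat3 rose with both agents at 2 h (0.54 ± 0.13, 0.0052) and fell in file-code D libraries at 8 h (−0.53 ± 0.14, 0.015). Of 10 other lysophospholipid acyltransferases tested, 3 rose and 2 fell with both agents at 8 h, against 9.54% and 7.25% of all genes. Their median log2 change was 0.03, beside 0.03 for all genes. Lclat1, which acylates lysocardiolipin and lysophosphatidylinositol, rose by 0.44 ± 0.07 (5.6e-05) with both agents and by 0.73 ± 0.07 (2.3e-07) in file-code L libraries at 8 h. Lpcat4 rose by 0.55 ± 0.19 (0.049) with both agents and by 1.15 ± 0.19 (0.00022) in file-code L libraries. Abhd5, an activator of triacylglycerol breakdown, rose with both agents at 8 h (0.44 ± 0.08, 0.00046), and Lpcat1 and Lpcat2, which acylate lysophosphatidylcholine, fell (−0.25 ± 0.08, 0.035, and −0.28 ± 0.07, 0.0045). At 2 h the counts with both agents were again 3 higher and 2 lower, with a median of 0.14 beside 0.00. In that comparison 19.9% of all genes passed (9.88% higher).

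Downstream of phosphatidic acid, 3 of 11 tested genes for its use rose and 2 fell with both agents at 8 h (median 0.07, beside 0.03 for all genes). Of all genes tested, 9.54% rose and 7.25% fell in that comparison. Dgat1 and Dgat2, which complete triacylglycerol, rose by 0.82 ± 0.14 (adjusted p = 0.00024) and 0.53 ± 0.16 (0.029). The lipins, which remove the phosphate of phosphatidic acid, moved apart: Lpin3 had 6.05 ± 0.339 CPM with both agents and 2.88 ± 0.588 CPM in vehicle libraries (1.07 ± 0.22, 0.0010), and Lpin1 had 9.97 ± 0.273 and 15.2 ± 0.43 CPM (−0.61 ± 0.14, 0.0032). In file-code D libraries at 8 h Dgat1 rose by 1.17 ± 0.14 (4.5e-06), and Lpin1 fell with both agents at 2 h (−0.81 ± 0.14, 0.00020). Of 9 genes for other routes to phosphatidic acid, 1 rose and 3 fell with both agents at 8 h (median 0.01), against 9.54% and 7.25% of all genes. The diacylglycerol kinase Dgkh rose at 8 h (0.89 ± 0.21, 0.0036) and at 2 h (1.16 ± 0.20, 0.00017), and the phospholipases Pld1 and Pld2 fell at both times, with log2 values of −0.42 ± 0.09 each at 8 h and of −0.36 ± 0.09 and −0.49 ± 0.09 at 2 h.

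For the handling of LPA itself, 2 of 9 tested genes rose and 2 fell with both agents at 8 h (median 0.02), against 9.54% and 7.25% of all genes. The lipid phosphate phosphatase Plpp3 (0.64 ± 0.10, adjusted p = 8e-05 by edgeR) and Gdpd1, of the same list (0.38 ± 0.10, 0.0098), rose. Autotaxin, Enpp2, which makes extracellular LPA, fell (−0.45 ± 0.09, 0.0017), and so did the phosphatase Plpp1 (−0.35 ± 0.08, 0.0026). At 2 h 0 of 9 rose and 3 fell with both agents (median −0.13, beside 0.00 for all genes), Plpp3 among them (−0.36 ± 0.10, 0.014). In that comparison 19.9% of all genes passed (9.88% higher). Among LPA receptors 0 of 5 rose and 1 fell with both agents at 8 h (Lpar1, −0.50 ± 0.09, 0.00023), where 16.8% of all genes passed, and 2 fell at 2 h (Lpar2, −0.95 ± 0.14, 3.9e-05, and Lpar4, −0.54 ± 0.16, 0.022), where 19.9% passed. In file-code L libraries at 2 h, where 13.9% of all genes passed, Lpar1 rose (0.30 ± 0.09, 0.024) and Lpar2 fell (−0.64 ± 0.14, 0.0028). In file-code D libraries at 8 h, where 12.0% passed, Lpar1 fell (−0.54 ± 0.09, 0.00016).

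Among 15 genes for acyl-CoA supply and lipogenesis, 2 rose and 5 fell with both agents at 8 h (median −0.13, beside 0.03 for all genes). Of all genes tested, 9.54% rose and 7.25% fell in that comparison. Acsl4, the ligase that activates arachidonic acid, had 109 ± 6.72 CPM with both agents and 50.7 ± 4.2 CPM in vehicle libraries (1.10 ± 0.07, adjusted p = 1.3e-10), and it rose in file-code D libraries at 8 h (0.51 ± 0.07, 1.8e-05) and in all 3 treated groups at 2 h (1.28 with both agents, 0.82 in file-code L, 0.38 in file-code D). The desaturases Fads2 (−0.64 ± 0.06), Scd2 (−0.57 ± 0.06) and Fads1 (−0.53 ± 0.08) fell with both agents at 8 h, and Scd1 rose (0.29 ± 0.06, 0.0014). Scd2 fell in 5 of the 6 comparisons with vehicle. Of 7 lipogenic transcription factors tested, Cebpb alone rose with both agents at 8 h (1.56 ± 0.30, 0.00070), where 9.54% of all genes rose. At 2 h, where 9.88% of all genes rose, Cebpb rose by 2.65 ± 0.31 (1.9e-06) and Mlx by 0.25 ± 0.08 (0.028).

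Across the 24 libraries, the profile of log2 CPM most like that of each member was sought among 11286 genes, as a description with no test, since the libraries share groups and depth. For Gpam these were Pde4d (Pearson r = 0.88), Scd2 and Pknox2 (0.87 each), and the most opposite was Spp1, osteopontin (−0.92). For Agpat3 they included Igfbp4 and Cplx2 (0.96 each), with Wdsub1 most opposite (−0.92). For Agpat1 they were Inf2, Mrc2 and Nab2 (0.97 each), with Lta4h most opposite (−0.88). For Agpat2 they were Mrpl38, Slc39a11 and Tceanc2 (0.94 each), with Usp9x at −0.93. For Agpat5 they were Prkg2, Tm4sf1 and Ppid (0.89 each), with Tef at −0.86. Agpat4 had the lowest likeness to its nearest genes, Tra2b, Mllt11 and Tra2a (0.78 each), with Zfp503 at −0.84.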

How the data were processed

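Per the labels' protocols, RNeasy columns gave the RNA of Ocy454 cells, and libraries came from the DNBSEQ Fast RNA Library Prep Set. The deposited tables give estimated counts and TPM per Ensembl transcript, made by the authors; the build was mm39, per the submitters' processing notes, and no source used here names the quantifier or strand setting. Transcripts were assigned to genes with GENCODE M21, which matched 135078 of 139145 transcripts and at least 99.45% of each library's counts. Estimated counts were summed per gene and rounded, filtered with filterByExpr (minimum count 10), scaled by TMM and tested with edgeR 4.0.16 (R 4.3.3), robust quasi-likelihood, in 1 fit of 24 libraries with 16 residual degrees of freedom, two-sided, adjusted (Benjamini-Hochberg) over 16424 genes at 0.05. Standard errors are the log2 change divided by the square root of F. The 51989 transcripts were tested the same way. DESeq2 1.42.0 was an alternative. A depth of 32964439 to 33842037 counts per library and 3 libraries a group set the precision.

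The members and lists were chosen with earlier results of these data known. Other genes were named by rule: at most 3 called genes in each direction, by p, per pathway list and comparison with vehicle, the 3 genes most like and the 1 most unlike each member, and the check genes Cyp24a1 and Vdr. For Agpat3, 1 of its most like genes is not reported here. Transcripts were named at 10% or more of the gene's TPM or where they passed. Pairs of libraries of a group all differed beyond sampling noise (chi-square over its degrees of freedom, 6.54 to 118). Exons of opposite-strand genes overlap Agpat1 (Egfl8, 101 bases), Agpat2 (Egfl7, 64), Agpat3 (Gm40709, 16) and Agpat5 (Gm35934, 2043), and without a stated strand setting their reads cannot be told apart. These genes averaged 1.16, 5.10, 0.0188 and 0.00654 TPM. Promoter sequences are from RefSeq (GRCm38.p6), which matched 5 of 6 members. Protein sequences were not used here.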

Additional observations from a re-analysis of the deposited data

Results flagged for a closer look

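In 6 cases an effect differed between groups by a test of the difference itself (edgeR quasi-likelihood, Benjamini-Hochberg adjustment over all genes). At 8 h the joint difference of Agpat1 from vehicle fell below the sum of the single-agent differences by a log2 value of −1.08 (adjusted p = 0.048), and that of Agpat2 exceeded the sum by 0.42 (0.048). In this interaction 7.68% of all genes passed. Leaving out any 1 of 8 of the 12 libraries lost the Agpat1 call, and any 1 of 9 lost the Agpat2 call. Fitted on the compared groups only, 0 members and 0.083% of all genes passed. The difference between both-agent and vehicle libraries was higher at 8 h than at 2 h by 0.65 for Agpat2 (0.0016) and by 0.67 for Agpat3 (0.020), where 9.68% of all genes passed. Leaving out either 1 of 2 of the 12 libraries lost that Agpat3 call. In file-code D libraries the same change with time was 1.07 for Agpat3 (0.00099), where 6.76% passed. In file-code L libraries it was −0.41 for Agpat4 (0.033), where 4.17% passed. That Agpat4 call was lost without any 1 of 9 of the 12 libraries.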

How the results depend on the processing

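Of 24 called member differences, all 24 kept their sign under every alternative run, 8 stayed past the threshold under every one and 16 did so without each library in turn. Depth was even between libraries and 3 libraries a group limit the precision. Counts of members past the threshold that moved by more than 1.5 times are given next, by comparison. The share of all genes tested that passed in the same fit stands in parentheses. Smaller moves are left out. Examples with both agents at 8 h are 4 under DESeq2 (19.8%), no filter (7.23%) or GC correction (21.8%). With the compared groups only the count was 2 (6.75%), against 3 in the main fit. With no filter on low counts: interaction at 8 h 1, file-code L at 2 h 1, vehicle 8 h against 2 h 0, time difference of file-code L 0 and of file-code D 2. With only protein-coding transcripts summed: both against file-code L at 8 h 2 (9.35%), interaction at 8 h 1 (9.4%), file-code L at 2 h 1 (14.5%). The same sums gave 1 (19.7%) for both against file-code D at 2 h and 0 (4.54%) for the time difference of file-code L. With counts rebuilt from TPM: interaction at 8 h 1 (2.62%), both against file-code D at 2 h 1 (13.7%), vehicle 0 (9.85%). These counts also gave 0 (2.22%) for the time difference of file-code L and 2 (4.32%) for that of file-code D. With DESeq2: both against file-code L at 8 h 4, file-code L at 2 h 1, vehicle 2, time difference of file-code D 2. With the compared groups only: file-code L at 8 h 1, file-code D at 8 h 1, both against file-code D 0 at 8 h and 4 at 2 h, interaction at 8 h 0, vehicle 0, time difference of both agents 1. With GC and length correction: both against file-code L at 8 h 2, file-code L at 2 h 1, both against file-code D at 2 h 4, vehicle 2, time difference of file-code D 2. With the axis within groups as a covariate: both agents at 8 h 5 (29.2%), file-code L 5 at 8 h (33.4%) and 4 at 2 h (26.0%). Both against file-code L had 5 at 8 h (29.5%) and 1 at 2 h (3.33%). Both against file-code D had 4 at 8 h (39.3%) and 4 at 2 h (33.6%). This covariate also gave 4 (36.9%) for the interaction at 8 h and 3 (31.8%) for vehicle. For the time differences of file-code L and of file-code D it gave 2 (18.4%) and 3 (35.2%). Without the extreme libraries of that axis: both against file-code L and against file-code D at 8 h 4 each, vehicle 0, time difference of file-code L 0. The number of all genes past the threshold moved in these fits as well. By comparison it was 1.62 to 17.6 times the main number with the covariate and 0.01 to 1.31 times with the compared groups only. It was 0.878 to 14.7 times with no filter, 0.349 to 1.17 with counts rebuilt from TPM and 1.07 to 2.81 with DESeq2. It was 0.972 to 2 with GC correction, 0.5 to 1.12 with protein-coding transcripts only and 0.49 to 2.05 without the axis extremes. GC correction, covariate and axis extremes were chosen after seeing the data. The cause was not tested.

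Most libraries of the same replicate number did not move together: 3 of 84 same-number pairs had a correlation of deviations over 0.1 (−0.183 to 0.254). Between 8 h vehicle and 8 h both-agent libraries it was 0.052, 0.254 and 0.196 for replicates 1, 2 and 3. Their scores on the main axis within groups were 0.17 and 0.13, −0.46 and −0.43, and 0.30 and 0.30, in that order. Pairs of unlike number were not compared, and a batch shared by these 2 groups was not tested. A fit with the replicate block gave 26 member calls in place of 24. It called Agpat1 at 8 h with both agents (0.65, adjusted p = 0.047) and in file-code L (0.68, 0.040), lost the Agpat2 interaction (0.051) so that the interaction at 8 h had 1, and gave 2 for the time difference of file-code D. In that fit 8.20% of all genes passed in the interaction at 8 h and 6.31% in the time difference of file-code D. For member transcripts with both agents at 2 h, the block, median-of-ratios scaling and no filter each gave 1 call.

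Leaving out single libraries gave 1 to 3 members for file-code L at 8 h, 0 to 4 for both against file-code L and for the interaction at 8 h, 1 to 2 for both against file-code D at 2 h, 0 to 1 for vehicle, and 1 to 2 (both agents), 0 to 1 (file-code L) and 1 to 2 (file-code D) for the time differences. The count of 4 came without both-agent replicate 3 for the comparison with file-code L and without vehicle replicate 3 for the interaction. For transcripts it gave 0 to 1 with both agents at 2 h, 0 to 1 in file-code L and 1 to 3 in file-code D libraries at 8 h. The shares of all genes and transcripts in these fits are not reported here.

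Among the member differences printed here, values that changed sign were not past the threshold. They were Agpat2 in file-code D at 2 h (−0.01, protein-coding transcripts only), Agpat3 with both agents (−0.05, counts rebuilt from TPM) and in file-code D (0.03, GC correction) at 2 h, Agpat1 in vehicle 8 h against 2 h (0.01 with GC correction, 0.17 without axis extremes), and Agpat2 in file-code L at 8 h (0.01 without axis extremes). Leaving out single libraries gave −0.32 to 0.17 for Agpat1 in the vehicle comparison, −0.04 to 0.15 for Agpat3 in file-code L and −0.08 to 0.25 for Agpat1 in file-code D at 2 h, and −0.01 to 0.11 for Agpat4 with both agents and −0.07 to 0.01 for Agpat2 in file-code L at 8 h. A further 42 member differences are not printed. Of these, 10 changed sign under some alternative and 17 passed the threshold under some alternative.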
